A study of Gallus gallus with 2 samples.

Results

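Muscle satellite cells were examined here among the cells dissociated from the chicken visceral peritoneum. A barcode was taken as a member if it had more than 1000 genes and at least 1 UMI (unique molecular identifier, 1 counted transcript copy) of at least 2 of the 5 genes *MYF5*, *MYF6*, *CDH15*, *PAX7*, and *MYOD1*. The members were thus chosen by the measured UMIs of these genes, and the rule gave 74 of them among 11330 kept barcodes (0.653%), and the other 11256 kept barcodes served as the comparison. Satellite cells are the stem cells of skeletal muscle, which lie between a muscle fibre and its basement membrane. They are marked by the paired-box factor PAX7, rest outside the cell cycle until muscle grows or is injured, and then follow the myogenic factors MYF5 and MYOD1 towards myoblasts and, with MYOG, towards fusion into fibres. Visceral peritoneum itself is not a skeletal muscle.

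The study compared Huiyang Bearded Chickens with hyperpigmentation of the visceral peritoneum (HVP) and birds with a normal peritoneum. All birds were 40 days old, and no treatment is given for either group. Peritoneal tissue of 10 birds per group was dissociated, and each group is 1 library made with 10x Genomics droplet chemistry, in which the birds cannot be told apart. With 1 library per group there is no replicate, so no test between or within libraries was made, and all intervals cover counting error at 95% only. For both libraries, the name of the deposited files and the title in the labels are the opposite of each other. The titles were followed, and "library labelled HVP" and "library labelled Normal" are used throughout. Which of the names is right was not settled here, so every direction between the libraries depends on the titles.

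The library labelled HVP held 7157 barcodes, of which 5866 had more than 1000 genes, with 34391591 UMIs in those kept. The library labelled Normal held 6981 barcodes, of which 5464 were kept, with 24927669 UMIs. In both libraries, the kept barcodes outnumbered the cells that the study reports after the same gene limit. The libraries shared 14 barcode sequences, 11 of them among kept barcodes, 1 of which was a member in 1 library, and none was a member in both. Members had a median of 4630.5 UMIs and 1848 genes in the library labelled HVP, against 5347 UMIs and 1982 genes in the other kept barcodes. In the library labelled Normal, they had 3307.5 UMIs and 1513 genes, against 3821 UMIs and 1617 genes. Members were therefore slightly shallower than the other barcodes in both libraries. Scrublet called no member a doublet. In the library labelled HVP it called only 5 of the 5866 kept barcodes, so its calls carry no weight there.

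The library labelled HVP contained 34 members, or 0.580% of its kept barcodes (Clopper-Pearson interval 0.402 to 0.809%). There were 40 in the library labelled Normal, or 0.732% (0.523 to 0.996%). These shares were not compared by a test, and 5 of the 40 are the fibre-rich barcodes described further on.

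The rule genes are given as a description only, since they chose the members. *MYF5* (chromosome 1, 40098411 to 40099891 in GRCg7b), the earliest myogenic bHLH factor, was found in 30 of 34 members with 200 UMIs in the library labelled HVP. In that labelled Normal, it had 172 UMIs in 34 of 40 members. Its neighbour *MYF6* (chromosome 1, 40093806 to 40095308), a bHLH factor of the same family, lies 3102 bases away with no annotated gene in between. *MYF6* had 38 UMIs in 18 members and 48 UMIs in 23 members, in the same order of libraries. Both genes were found together in 36 members, and outside the members *MYF5* had 10 UMIs and *MYF6* 1 UMI in all 11256 barcodes. *CDH15* (chromosome 11, 18251763 to 18256505), which encodes M-cadherin at the contact between satellite cell and fibre, had 53 UMIs in 24 members and 43 UMIs in 23 members. *PAX7* (chromosome 21, 4439660 to 4528806) had 106 UMIs in 29 members of the library labelled HVP and 67 UMIs in 23 members of the library labelled Normal. *MYOD1* (chromosome 5, 11805090 to 11808553), the factor of committed myoblasts, was the least frequent of the 5, with 52 UMIs in 10 members and 235 UMIs in 15 members.

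Only *PAX7* was common outside the members, with 161 UMIs in 100 barcodes. Of these barcodes, 60 were in the clusters of melanocyte-like cells, which hold 94 barcodes in the library labelled HVP and 62 in that labelled Normal, and 115 of the 161 UMIs were found there. The *PAX7* barcodes made up 41 and 19 of these melanocyte-like barcodes, respectively. Members just inside the limit, with exactly 2 rule genes, numbered 22, while 29, 17, and 6 members had 3, 4, and 5 of them. Just outside the limit, 126 barcodes had exactly 1 rule gene, which was *PAX7* in 100, *MYOD1* in 12, *CDH15* in 7, *MYF5* in 6, and *MYF6* in 1. The commonest combination was *MYF5* with *MYF6*, *CDH15*, and *PAX7* in 12 members, followed by *MYF5* with *CDH15* and *PAX7* in 11. *MYOD1* was found without *MYF5* in 10 members, and without either *MYF5* or *PAX7* in 7. Both counts include fibre-rich barcodes described further on, and without these the latter count is 3.

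To see whether the members form a group apart from the rule, each library was clustered without the 5 rule genes. In the library labelled HVP, 31 of 34 members fell into a single cluster of 33 barcodes. In the library labelled Normal, 34 of 40 members fell into a single cluster of 38 barcodes. Together these clusters held 65 of 74 members (87.8%). The 6 barcodes in these clusters that were not members each had exactly 1 rule gene, with 2026 to 4688 UMIs, and all of them held 11 to 80 UMIs of *STC2*, a leading gene of the members as shown further on.

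The other 9 members lay in clusters of other cells. In the library labelled HVP, 2 were in the cluster with most *MYH11* UMIs, *MYH11* being the myosin of smooth muscle. One of them had 6385 UMIs with 71 of *MYH11* and 17 of *DES*, and the other had 11404 UMIs with all 5 rule genes and the proliferation genes *TOP2A* (16 UMIs) and *CDK1* (9 UMIs). Another member of that library, with 2534 UMIs and 3 UMIs of *CDH5*, was in the blood endothelial-like cluster. In the library labelled Normal, 1 member with 7630 UMIs had 18 UMIs of *MYOD1* and 186 UMIs of *COL1A1*, and lay in a *COL1A1*-rich cluster.

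The remaining 5 were barcodes of the library labelled Normal with at least 100 UMIs of *TNNC2*, the fast-fibre troponin C, and are called *TNNC2*-rich. They had 10528, 12828, 14578, 42489, and 87635 UMIs, whereas the other members reached at most 11404. They held 240, 244, 293, 1040, and 1608 UMIs of *TNNC2*, and the 5 genes *TNNC2*, *TNNI2*, *MYL1*, *TNNT3*, and *GAPDH* took 14.3 to 19.2% of their UMIs. None of them had a UMI of *PAX7*, and *MYF5* had 1 UMI in all 5, while *MYOD1* had 1, 3, 13, 24, and 135 UMIs, or 176 of the 287 *MYOD1* UMIs of all members. These values go against the label of a satellite cell, and they are those of a barcode with skeletal muscle fibre transcripts. Another 3 *TNNC2*-rich barcodes of the library labelled Normal, with 8380 to 9639 UMIs, lay outside the rule. They stayed among the other kept barcodes of the comparison, and the library labelled HVP had none.

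**Figure D1:**
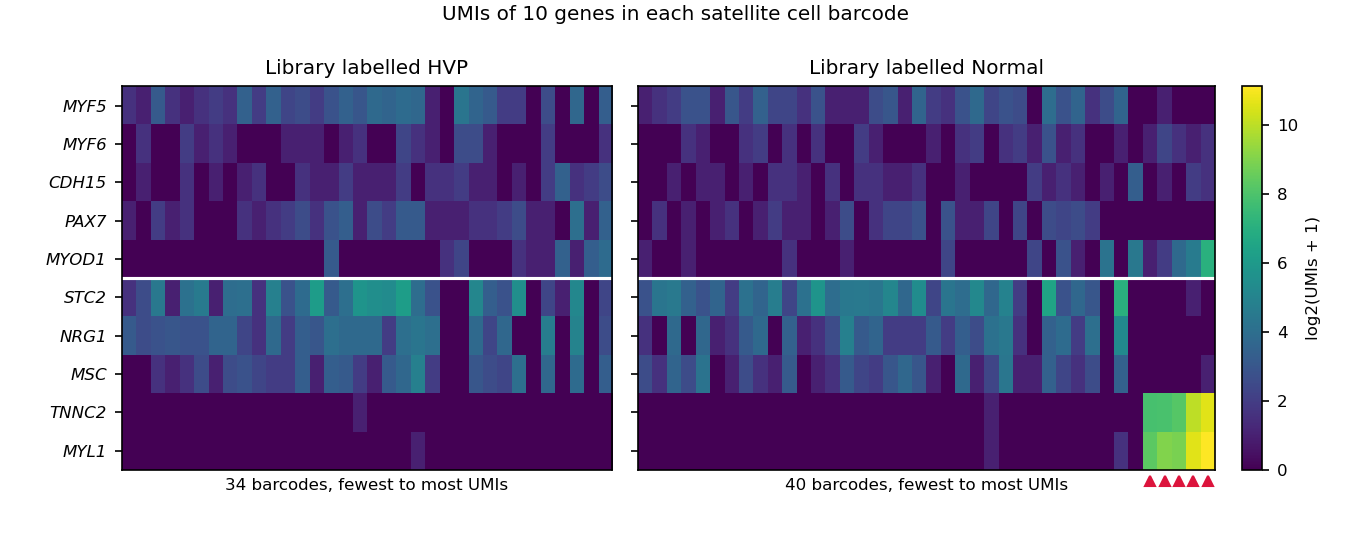
UMIs of 10 genes in each member, as log2(UMIs + 1) in colour, with 1 column per barcode ordered from fewest to most total UMIs, for the 34 members of the library labelled HVP and the 40 of the library labelled Normal. The rule genes are above the white line, and the 5 columns with red marks are the *TNNC2*-rich barcodes, which have 240 to 1608 UMIs of *TNNC2* and none of *PAX7*.

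The *TNNC2*-rich barcodes held 168058 UMIs, which is 55.0% of the members' UMIs in the library labelled Normal and 35.4% of those in both libraries. Sums over members are thus given with and without them, and the 69 members without them (34 and 35) held 307278 UMIs. This split was made after the values had been seen. A gene was called higher if its CPM (its UMIs divided by all UMIs of the group and scaled to 1000000) in the members were at least 2 times those in the other kept barcodes, and above them in each library. It was called lower if the CPM was at most 0.5 times that of the other barcodes and below it in each library. Only genes with at least 10 observed or expected UMIs in the members were counted. Of 7302 such genes, 1083 (14.8%) were called higher and 1875 (25.7%) lower. Without the *TNNC2*-rich barcodes, 906 of 5769 genes (15.7%) were called higher and 1122 (19.4%) lower. Only 569 genes were called higher both ways, while 514 were called higher with all members alone and 337 without the *TNNC2*-rich barcodes alone. Among genes called lower, 1050 were shared, and no gene changed direction between both sets of calls. With the members of the main clusters alone, 921 of 5440 genes (16.9%) were called higher and 1080 (19.9%) lower. The median log2 ratio of these genes was -0.06 with all members and 0.13 without the *TNNC2*-rich barcodes. It leaves out genes without a UMI in the members, which the medians of the gene lists below keep.

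**Figure D2:**
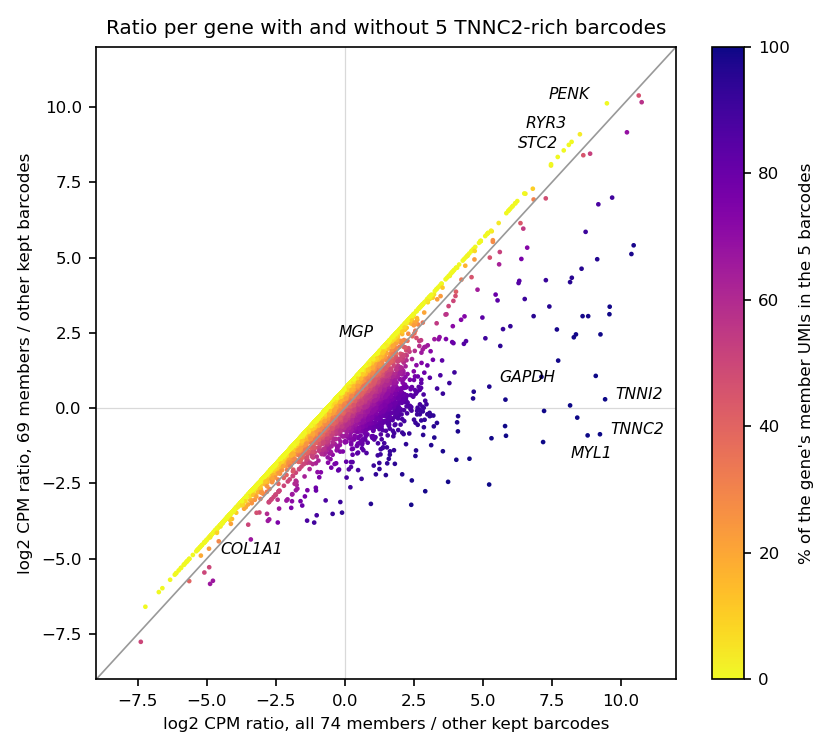
Log2 ratio of CPM in members to CPM in other kept barcodes, with all 74 members (x axis) and with the 69 members left without the *TNNC2*-rich barcodes (y axis), 1 point per gene, coloured by the percent of the gene's member UMIs in the *TNNC2*-rich barcodes. Fibre genes such as *TNNC2* (608-fold and 0.55-fold), which defined the split, fall far below the diagonal, while *STC2* and *PENK* lie above it. The other kept barcodes include 3 that are *TNNC2*-rich.

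Genes were ranked by their ratio, leaving out the rule genes and taking those with at least 30 UMIs in the members and a ratio of at least 2 in each library. Of the first 25 over all members, 17 had more than 90% of their member UMIs in the *TNNC2*-rich barcodes. They were *KLHL31*, *TNNI2*, *TNNC2*, *CACNG1*, *TCAP*, *MYBPC1*, *MYL1*, *TRDN*, *MYL3*, *ACTN2*, *TNNT3*, *SLN*, *MHM2*, *SRL*, *EEF1A2*, *MYOZ2*, and *PFKM*, most of which encode parts of the sarcomere or of calcium handling in fibres. *TNNI2*, the fast troponin I, had 3 UMIs in the library labelled HVP and 2611 in that labelled Normal, with a ratio of 691 over all members and 1.23 without the *TNNC2*-rich barcodes. *TNNC2* had 1 and 3426 UMIs, with ratios of 608 and 0.55 (0.07 to 1.99). *MYL1*, a fast myosin light chain, had 1 and 5161 UMIs, with ratios of 446 and 0.53. The 3 *TNNC2*-rich barcodes outside the rule stayed among the other kept barcodes in these ratios. They held 162, 173, and 164 of the 698 *TNNC2* UMIs there, and 364, 537, and 412 of the 1433 *MYL1* UMIs. Their part in the ratios under 1 was not tested. *TNNI2*, *TNNC2*, and *MYL1* lost their call without the 5 *TNNC2*-rich members, which had been set apart by *TNNC2* itself. In contrast, *ACTN2*, encoding the actinin of the Z disc, was still called higher at 24.8 (13.1 to 43.5). *TRDN*, encoding triadin of calcium release, had a ratio of 58.0 from 10 UMIs, all in the library labelled HVP, and was not called. Of the others, *PENK*, *RYR3*, *STC2*, *NRG1*, and the unnamed genes ENSGALG00010009589 and ENSGALG00010020809 were also among the first 25 without these barcodes. ENSGALG00010029215 and *ITGB1BP2*, which encodes the muscle integrin partner melusin, had 87.9 and 45.2% of their UMIs in the *TNNC2*-rich barcodes.

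The following levels are for the 69 members without the *TNNC2*-rich barcodes. *STC2* (chromosome 13, 8842116 to 8851764), encoding the secreted glycoprotein stanniocalcin 2, had 612 and 738 UMIs in 30 and 32 members, in the order HVP and Normal. Its median was 11.5 and 15 UMIs per member and its CPM 3602 and 5371, against 7.60 and 12.2 in the other barcodes, a ratio of 461 (417 to 509). *NRG1* (chromosome Z, 54642186 to 55109784), the ligand neuregulin 1 of the ERBB receptors, had 297 and 271 UMIs in 28 and 29 members, with a CPM of 1748 and 1972 against 3.07 and 6.01 and a ratio of 429.9 (370.1 to 501). Both genes were found in most members of both libraries.

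*PENK* showed another distribution, and *RYR3* is given beside it. *PENK* (chromosome 2, 111079689 to 111083800), which encodes the opioid precursor proenkephalin, had the largest ratio among the ranked genes, 1119.5 (735 to 1769), with 103 UMIs in 14 members and 49 UMIs in 12 members. A single member held 45 of the 103 UMIs in the library labelled HVP, and the highest member of the library labelled Normal held 17. *RYR3* (chromosome 5, 29657556 to 29842303), an intracellular calcium release channel, had 114 and 58 UMIs in 40 members and a ratio of 549 (407 to 749). *PENK* was therefore absent from most members, whereas *RYR3* was found in most of them.

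Further leading genes were regulators known from muscle progenitors. *MSC* (musculin, chromosome 2, 116923330 to 116925515), a bHLH repressor, had 181 UMIs in 27 members and 174 UMIs in 30 members, with a CPM of 1065 and 1266 against 11.7 and 14.7 and a ratio of 89.2 (78.4 to 101.3). *FGFR4*, a fibroblast growth factor receptor of muscle progenitors, had 75 and 53 UMIs in 26 and 24 members and a ratio of 59.6 (48.5 to 72.9). *SGCA*, encoding the alpha-sarcoglycan of striated muscle, had 18 and 13 UMIs and a ratio of 62.5 (40.3 to 94.6). *RBM24*, an RNA-binding protein of muscle, had 63 and 70 UMIs and a ratio of 32.1. Among genes not usually tied to muscle, *PRPS2* of nucleotide synthesis had a ratio of 267, the heparan sulfate sulfotransferase gene *HS3ST5* 139.7, the receptor kinase gene *ALK* 118, the homeobox gene *EMX2* 58.8, and *CUBN*, encoding the receptor cubilin, 47.1. *ALK* was found in 19 members, 1 of which held 35.9% of its UMIs. *CRYAB*, a small heat shock protein gene, had 69 and 6 UMIs, of which 54.7% lay in 1 member, and a ratio of 27.5.

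**Figure D3:**
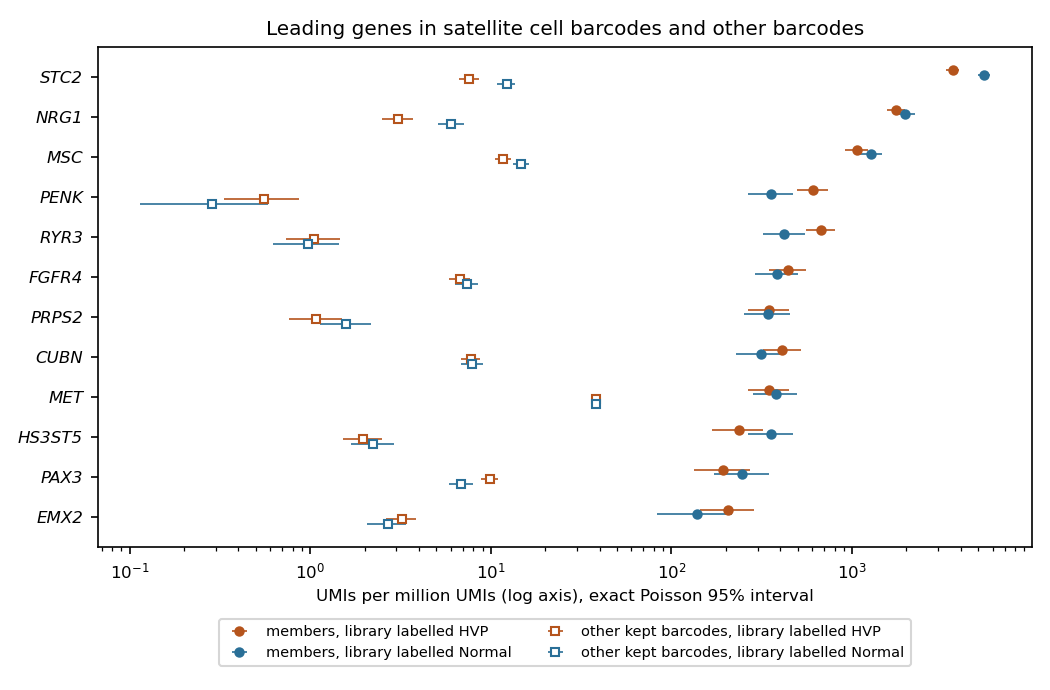
UMIs per 1000000 UMIs (CPM, log axis) of leading genes in the 69 members without *TNNC2*-rich barcodes and in the other kept barcodes, for each library, with exact Poisson intervals for counting error. In both libraries the members lie above the other barcodes for every gene shown, which the choice of these genes required. In the pooled libraries the ratio was 461 for *STC2* and 1119.5 for *PENK*.

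The members differed among themselves along *MYOD1*. Among the 69, 20 had a UMI of *MYOD1* (10 in each library) and 49 had none. This grouping was chosen after the values had been seen and uses a rule gene, so it is a description. *STC2* was at 1372 CPM (1111 to 1675) in members with *MYOD1* and 5164 CPM (4728 to 5630) in those without it in the library labelled HVP, and at 1625 CPM (1284 to 2028) and 7383 CPM (6831 to 7969) in the library labelled Normal. *NRG1* was lower in the members with *MYOD1* as well, with 1100.5 against 2202 CPM and 1250 against 2361 CPM. *PENK* had the opposite order, with 1315 CPM (1060 to 1613) against 110.1 CPM (55.0 to 197) in the library labelled HVP and 812 CPM (578 to 1111) against 111.9 CPM (53.6 to 205.7) in the library labelled Normal. Of the 152 *PENK* UMIs, 131 were in the 20 members with *MYOD1*. Likewise, all 9 UMIs of *MYOG* were in 5 of these 20 members. A few members held many of these UMIs. Without the member with most UMIs of the gene, *STC2* was at 810.5 and 1265 CPM in members with *MYOD1* and 4667 and 6476 CPM in those without, and *PENK* at 775 and 530.0 CPM and 93.1 and 58.7 CPM. All of the 49 members without *MYOD1* had *STC2*, compared with 13 of the 20 with it. Members with *MYOD1* were also deeper, with a median of 6098 against 3574 UMIs. The rule asks only 1 further rule gene of a barcode with *MYOD1*, but 2 of a barcode without it. The member with 71 UMIs of *MYH11* thus passed with 1 UMI each of *PAX7* and *MYOD1*, and had no *STC2*. The parts of depth and of the rule in these differences were not tested.

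To place the members within known satellite cell biology, lists of genes were counted. For comparison, 14.8% of all genes were called higher and 25.7% lower with all members. Without the *TNNC2*-rich barcodes these shares were 15.7 and 19.4%. The stem and quiescence list held 29 genes, of which 26 were in the files and 22 could be evaluated over all members. Here 11 genes were called higher and 5 lower, with a median log2 ratio of 1.73. Among the 69 members, 12 of 21 were called higher and 5 lower, with a median of 2.38. The median was 0.13 for all evaluable genes with a UMI in the members. Transcription factor and cofactor genes of muscle progenitors were among those called higher. *PAX3*, the paralogue of *PAX7*, had 33 UMIs in 11 members and 34 UMIs in 11 members, with a ratio of 25.4 (19.4 to 32.8). *SIX4*, a homeobox gene, had 13 and 8 UMIs and a ratio of 4.47 (2.75 to 6.87). *EYA1* and *EYA4*, encoding partners of such homeobox factors, had 20 and 18 UMIs in both libraries together and ratios of 11.04 (6.66 to 17.3) and 12.4 (7.24 to 19.96). A single member held 50% of the *EYA1* UMIs.

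Surface and signalling genes of the same list were also called higher. *MEGF10*, a receptor of satellite cells, had 108 and 70 UMIs and a ratio of 7.07 (6.05 to 8.21). *MET*, the receptor of hepatocyte growth factor, had 59 and 52 UMIs and a ratio of 9.41 (7.71 to 11.4). *NCAM1*, a neural adhesion molecule that also marks muscle progenitors, had 125 and 123 UMIs in 60 members and a ratio of 13.6 (11.9 to 15.4). *SPRY1*, an inhibitor of growth factor signalling that in mice is needed for return to quiescence, had 68 and 55 UMIs and a ratio of 5.56 (4.61 to 6.65). *CHRDL2* was called higher with a ratio of 7.40, although its 22 UMIs in the library labelled HVP stood against 2 in the library labelled Normal. Other markers known from mice were not found at raised levels. *SDC4* and *HES1* had ratios of 1.68 (1.45 to 1.95) and 1.10 (0.730 to 1.59), so neither was called. *CALCR*, encoding the calcitonin receptor, had 3 and 2 UMIs, too few for a call. *VCAM1* had 1 UMI and *CD34* 2 UMIs, with ratios of 0.029 (0.00073 to 0.160) and 0.062 (0.0075 to 0.224). *SDC3* had no UMI in all 74 members and was at least 35.9-fold lower than in the other barcodes, with the floor set at 3 counts over the group, and *TENM4* had no UMI either.

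Of 22 genes of commitment and fusion, 17 were in the files and 6 could be evaluated over all members, of which 2 were called higher and none lower (median log2 ratio -0.03). The shares of all genes were 14.8% higher and 25.7% lower. In the 69 members, 5 could be evaluated, none was called higher, and *MEF2C*, a transcription factor of differentiating muscle, was called lower with 13 and 6 UMIs and a ratio of 0.42 (0.25 to 0.65). The median log2 ratio was -0.12, and 1 lower call among 5 genes is near the 19.4% of all genes. *MYOG*, the factor of terminal differentiation, had 3 and 6 UMIs, and the fusion gene *TMEM8C* had 3 and 4. *ACTC1*, the cardiac actin that embryonic and regenerating muscle also makes, had 12 UMIs in the library labelled HVP, 83.3% of them in 1 member, and none in the library labelled Normal.

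The myofibre list behaved differently with and without the *TNNC2*-rich barcodes. *TNNC2*, a gene of this list, defined that split, so its own fall is no separate result. Over all members, 8 of 13 evaluable genes were called higher and none lower, with a median log2 ratio of 7.56. Of all genes, 14.8% were called higher over all members and 15.7% without the *TNNC2*-rich barcodes. Without the *TNNC2*-rich barcodes, only 4 genes could be evaluated, of which *NEB*, encoding nebulin, was called higher with 20 and 2 UMIs and a ratio of 17.9 (10.98 to 27.7), and 54.5% of its UMIs were in 1 member. *TTN*, encoding titin, had 25 UMIs, all of them in a single member of the library labelled HVP. *DES*, the muscle intermediate filament, belongs to the stem and quiescence list and is given here beside the fibre genes. It had a ratio of 2.81 over all members and was not called. Without the *TNNC2*-rich barcodes, *DES* was among the stem and quiescence genes called lower, at 20 and 3 UMIs and a ratio of 0.21 (0.14 to 0.32). A single member held 73.9% of these UMIs.

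In the Notch list, which is tied to quiescence in mice, 1 of 11 evaluable genes was called higher and 4 lower over all members, with a median log2 ratio of -0.42. In the 69 members without these barcodes, 2 were called higher and 3 lower (median 0.19). With so few genes, these counts are near the 15.7 and 19.4% of all genes. Both genes called higher are targets of the pathway. *HEY1*, a transcriptional repressor, had 33 and 29 UMIs and a ratio of 5.20 (3.97 to 6.69), and *NRARP*, a feedback inhibitor, had 31 and 19 UMIs and a ratio of 2.28 (1.69 to 3.01). The ligand genes *JAG1* (7 and 6 UMIs) and *DLL4* (2 UMIs) and the glycosyltransferase gene *LFNG* (4 UMIs) were called lower, with ratios of 0.44 (0.24 to 0.76), 0.16 (0.019 to 0.561), and 0.14 (0.038 to 0.354). The receptor genes *NOTCH1* and *NOTCH2* had ratios of 1.23 and 1.15 and were not called.

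Of 20 evaluable growth factor receptor genes over all members, 3 were called higher, near the 14.8% of all genes, and 10 lower (median log2 ratio -0.87). Without the *TNNC2*-rich barcodes, 5 of 19 were called higher and 6 lower (median 0.11). Of all genes, 25.7% were called lower over all members. Without the *TNNC2*-rich barcodes, 15.7% of all genes were called higher and 19.4% lower. Besides *FGFR4* and *MET*, the genes called higher in the latter set were *FGFR1* (40 and 36 UMIs, ratio 2.29, 1.804 to 2.87), the activin receptor gene *ACVR2B*, which binds myostatin (17 and 10 UMIs, ratio 3.15, 2.07 to 4.604), and the growth hormone receptor gene *GHR* (31 and 30 UMIs, ratio 2.08, 1.59 to 2.68). *PDGFRA* and *PDGFRB*, receptors of fibroblasts and pericytes, had 4 and 2 UMIs in all and ratios of 0.11 (0.031 to 0.294) and 0.09 (0.011 to 0.335), and *FGFRL1* had 1 UMI. *IGF1R* and *EGFR* were called in neither direction, with ratios of 1.81 and 1.64.

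Among secreted regulators, 3 of 19 genes were called higher and 11 lower over all members (median log2 ratio -1.19), and 3 of 17 higher and 5 lower without the *TNNC2*-rich barcodes (median -0.62). The counts called higher are near the 14.8 and 15.7% of all genes. The shares of all genes called lower were 25.7 and 19.4%. *MSTN*, encoding the growth inhibitor myostatin, had 9 and 5 UMIs in 7 members, 50% of them in 1 member, and a ratio of 103 (49.8 to 205). *BMP7* had 10 and 12 UMIs and a ratio of 11.8 (7.32 to 18.2), and *IGFBP2* had 7 and 10 UMIs and a ratio of 5.03 (2.91 to 8.12). The 5 genes called lower included *IGFBP4*, *FGF7*, *SFRP2*, and *WNT5A*, with ratios of 0.23, 0.23, 0.33, and 0.21. The fifth, *HGF*, encoding the ligand of MET, had no UMI in the members.

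The list of the dystrophin complex, integrins, and adhesion had 6 genes called higher and 7 lower of 23 over all members, and 9 higher and 6 lower without the *TNNC2*-rich barcodes, with medians of -0.20 and 0.39. The shares of all genes were 14.8% higher and 25.7% lower over all members, and 15.7 and 19.4% without these barcodes. *DMD*, encoding dystrophin, had 259 and 143 UMIs and a ratio of 2.62 (2.37 to 2.89). Other parts of its complex were called higher as well, namely *DAG1* at 2.29 (1.83 to 2.82), *SGCA*, *SGCD* at 3.03 (2.37 to 3.83), and *DTNA* at 4.08 (2.99 to 5.44), whereas *UTRN*, the dystrophin paralogue, was called lower at 0.46 (0.38 to 0.56). *CDH13*, a cadherin anchored without a cytoplasmic part, had 362 and 274 UMIs and a ratio of 4.21 (3.89 to 4.56). *ITGA6*, a laminin receptor chain, had 43 and 17 UMIs and a ratio of 5.45 (4.14 to 7.04). *ITGA7*, which marks satellite cells in mice, had 1 UMI in these 69 members and a ratio of 0.072 (0.0018 to 0.401).

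Matrix genes were mostly lower in the members. Over all members 3 of 24 were called higher and 13 lower, with a median log2 ratio of -2.29, and without the *TNNC2*-rich barcodes 4 and 13, with a median of -1.67. The shares of all genes called lower were 25.7 and 19.4%. The 4 called higher, a count near the 15.7% of all genes, encode basement membrane proteins. *LAMA2*, the laminin chain around muscle fibres, had 269 and 181 UMIs in 66 members and a ratio of 4.44 (4.03 to 4.87). *LAMB1* had 120 and 87 UMIs and a ratio of 5.81 (5.04 to 6.68), *COL18A1* had 114 and 92 UMIs and a ratio of 7.83 (6.78 to 9.004), and *NID2* had 34 and 21 UMIs and a ratio of 2.69 (2.03 to 3.51). *COL4A1* was not called, at 1.28 (1.18 to 1.38). Genes of the interstitial matrix were called lower, such as *FN1* at 0.088 (0.059 to 0.125), *DCN* at 0.14 (0.11 to 0.17), *COL6A1* at 0.13 (0.096 to 0.177), *TNC* at 0.069 (0.022 to 0.161), and *POSTN* at 0.12 (0.091 to 0.147), of which 1 member held 93.1% of the *POSTN* UMIs.

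In the list of neuromuscular and axon guidance genes, 3 of 20 were called higher and 10 lower with either set of members, with medians of -1.65 and -1.02. The 3 called higher are near the 14.8 and 15.7% of all genes. The shares of all genes called lower were 25.7 and 19.4%. Of those called higher, *DOK7*, an adaptor of the MUSK kinase at the neuromuscular junction, had 7 and 6 UMIs and a ratio of 30.7 (15.7 to 55.6), and the semaphorin receptor gene *PLXNA2* had 24 and 12 UMIs and a ratio of 5.25 (3.66 to 7.31). *ROBO1*, *SLIT3*, *SEMA3D*, and *NRP1* were among those called lower, with ratios of 0.25, 0.15, 0.083, and 0.15.

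**Figure D4:**
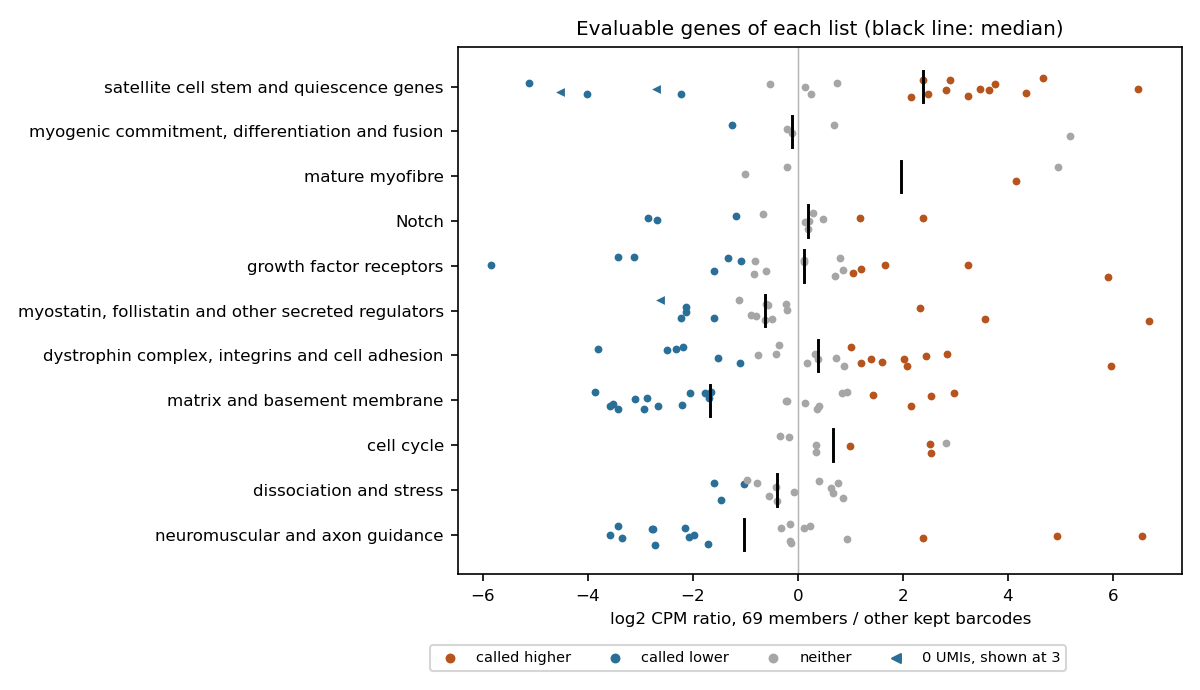
Log2 ratio of CPM in the 69 members without *TNNC2*-rich barcodes to CPM in other kept barcodes for the evaluable genes of each list, 1 point per gene coloured by its call, with the list median as a black line and genes without a UMI drawn as if they had 3. The stem and quiescence genes have a median of 2.38, and the matrix genes a median of -1.67, beside 0.13 for all evaluable genes with a UMI in the members.

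In the cell cycle list, 1 of 9 evaluable genes was called higher and 1 lower over all members (median log2 ratio -0.02). The shares of all genes were 14.8 and 25.7%. Leaving out the *TNNC2*-rich barcodes, 3 of 8 were called higher and none lower (median 0.67), beside 15.7 and 19.4% of all genes. *CCND1*, encoding cyclin D1 of the first gap phase, had 85 and 47 UMIs in 52 members and a ratio of 2.00 (1.67 to 2.37). *TOP2A* had 16 and 3 UMIs and *CDK1* 9 and 3, each in 2 members, and 84.2% of the *TOP2A* UMIs were in the member with 11404 UMIs. *CENPF* had 25 and 1 UMIs, with 96.2% in 1 member. The UMIs of *TOP2A* thus came from 1 member per library. In the dissociation and stress list none of 14 genes was called higher and 3 were called lower with either set of members, with medians of -0.19 and -0.40. The 3 called lower are near the 25.7 and 19.4% of all genes. In the 69 members, those called lower were *BTG2*, *HSPA8*, and *HSPB1* at 0.49, 0.36, and 0.33, whereas *FOS* and *JUN* were at 1.32 and 1.58. *HSPB1*, the gene of a small heat shock protein abundant in muscle, had 96.4% of its UMIs over all members in the *TNNC2*-rich barcodes.

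Among the 10 genes with most UMIs over all members, *GAPDH*, *MYL1*, *TNNC2*, *TNNT3*, *TNNI2*, and ENSGALG00010010295 were those of the *TNNC2*-rich barcodes, which held 97.2% of the *GAPDH* UMIs and 99.8% of those of ENSGALG00010010295. The others were *MGP*, *UBB*, *TPT1*, and ENSGALG00010000588, of which *MGP*, encoding the matrix Gla protein that inhibits calcification, was the only one called higher in the 69 members. It had 5180 UMIs in the library labelled HVP and 4745 in that labelled Normal, was found in 62 of 69 members, and reached a CPM of 30491 and 34536 against 6371 and 7649, a ratio of 4.68 (4.58 to 4.77). *PTGDS*, encoding prostaglandin D synthase, had 782 and 620 UMIs, with a CPM of 4603 and 4513 against 1125 and 981 and a ratio of 4.28 (4.06 to 4.52). At the other end, 6 genes with at least 100 CPM in the other barcodes had no UMI in any member. Beside *SDC3*, these were *KCNJ8*, a potassium channel of pericytes (at least 19.8-fold lower), *C7* of the complement cascade (19.3), *SHE* (19.2), the MHC class II gene *BLB1* (17.0), and the mechanosensitive channel gene *PIEZO2* (16.6). These bounds count the UMIs of all members, *TNNC2*-rich barcodes included. In the 69 members, the upper limits of the ratios of these 6 genes ran from 0.053 for *SDC3* to 0.115 for *PIEZO2*. The next lowest were ENSGALG00010003777 with 2 UMIs and *ZFPM2*, *RAPGEF5*, and ENSGALG00010012055 with 1 UMI each.

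Most evaluable marker genes of the other peritoneal cell types were low in the 69 members. All 6 fibroblast markers were called lower, with a summed CPM of 1578 and 6703 in members against 67622 and 44153 in the other barcodes. In the library labelled Normal, 3 members held 108, 186, and 76 UMIs of *COL1A1*, of 435 in these members, compared with 71 UMIs in all 34 members of the library labelled HVP. All 5 pericyte and all 5 blood endothelial markers in the files were called lower, and *KDR* and *TIE1* were at 0. The summed CPM of blood endothelial markers was 88.3 and 87.3, against 850 and 1629. In the 69 members, the Schwann markers *SOX10*, *CDH19*, and *S100B* and the melanocyte markers *PMEL*, *MLANA*, *GPNMB*, *OCA2*, *MLPH*, and *EDNRB2* had no UMI. None of the 6 Schwann markers and only 1 of the 8 melanocyte markers could be evaluated, so these counts of 0 say little. The Schwann markers summed to 11.8 and 0 CPM, against 48.6 and 26.4 in the other barcodes. The evaluable melanocyte marker was *MITF*, which is not limited to melanocytes and had 23 and 21 UMIs over all members. It was called lower over all members, at a log2 ratio of -1.26, and was not called in the 69 members, at -0.79. The 4 fibre markers in the files summed to 53.0 and 29.1 CPM without the *TNNC2*-rich barcodes, against 9.12 and 132 in the other barcodes. The other barcodes of the library labelled Normal include 3 that are *TNNC2*-rich. Over all members of that library, the 4 markers summed to 45297 CPM.

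To compare cells of different depth, each barcode was thinned to 2000 UMIs and the share with a UMI was taken. *STC2* was found in 28 of 34 members (82.4%, 65.5 to 93.2%) of the library labelled HVP and 32 of 35 (91.4%, 76.9 to 98.2%) of the library labelled Normal. In blood endothelial-like barcodes, where free RNA would show, it was found in 2 of 1052 (0.190%) and 6 of 1254 (0.478%), and in 24 of 359 (6.69%) and 55 of 625 (8.80%) in the cluster with most *MYH11* UMIs. *PENK* was in 11 of 34 and 9 of 35 members and in none of the Schwann-like or melanocyte-like barcodes. It was also in none of the 1052 and 1254 endothelial-like barcodes, where 0 counts leave room for at most 0.285 and 0.239% by the floor of 3 counts.

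Some genes called higher were shared with cells of neural crest origin. *PAX3* was in 6 of 34 members (17.6%, 6.76 to 34.5%) and 10 of 35 (28.6%, 14.6 to 46.3%), but in 67 of 93 (72.0%, 61.8 to 80.9%) and 43 of 61 (70.5%, 57.4 to 81.5%) melanocyte-like barcodes. Its CPM there was 786 and 659, above the 194 and 247 of the members. *SOX8*, which is known in satellite cells and in glia, was in 11 of 34 and 10 of 35 members, compared with 30 of 66 (45.5%, 33.1 to 58.2%) and 31 of 45 (68.9%, 53.4 to 81.8%) Schwann-like barcodes. *NCAM1* had the opposite order, with 27 of 34 (79.4%, 62.1 to 91.3%) and 27 of 35 members (77.1%, 59.9 to 89.6%) against 39 of 93 and 23 of 61 melanocyte-like barcodes and 17 of 66 and 12 of 45 Schwann-like barcodes. *MGP* was in 29 of 34 and 31 of 35 members, but also in 210 of 1052 (19.96%) and 304 of 1254 (24.2%) endothelial-like barcodes. The source of the *MGP* UMIs in the endothelial-like barcodes was not tested.

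**Figure D5:**
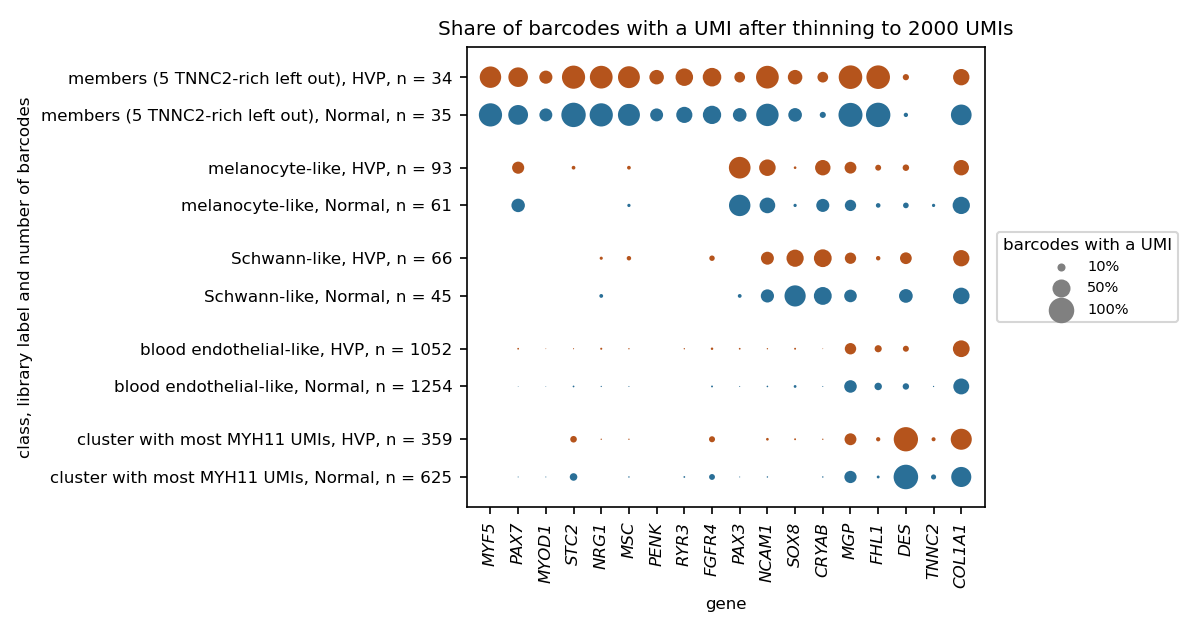
Share of barcodes with a UMI after thinning to 2000 UMIs, as the size of a dot (percent), for members without *TNNC2*-rich barcodes and for comparison clusters (rows, by library) and 18 genes (columns). *STC2* is at 82.4 and 91.4% in members and at 0.190 and 0.478% in the blood endothelial-like clusters, while *PAX3* is more frequent in the melanocyte-like clusters.

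Finally, the members of the libraries were set beside each other. With all members, 544 of 2620 genes with at least 30 UMIs (20.8%) were at least 2-fold higher in the library labelled Normal and 681 (26.0%) at least 2-fold higher in the library labelled HVP, with a median log2 ratio of -0.39. With the mean of CPM over barcodes in place of summed UMIs, they were 309 and 154, with a median of 0.03. Without the *TNNC2*-rich barcodes these were 77 (4.198%) and 86 (4.69%) of 1834 genes, with a median of -0.00. The genes with the largest ratio towards the library labelled Normal over all members were the fibre genes *MYL1*, *TNNC2*, *FABP3*, *TNNI2*, and *EEF1A2*, each with 1 to 3 UMIs in the library labelled HVP. Those towards the library labelled HVP were *MYH11*, ENSGALG00010002750, *AQP1*, ENSGALG00010015667, and *SORCS2*. *MYH11* had 71 UMIs against 1, and 98.6% of them were in 1 member, as were 96.7% of those of ENSGALG00010002750 and 88.2% of those of *AQP1*. For ENSGALG00010015667 and *SORCS2* these shares were 28.1 and 19.8%.

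Without the *TNNC2*-rich barcodes, the 5 largest ratios towards the library labelled Normal were those of *POSTN* (21.0), *EBF1* (18.2), *EXFABP* (10.95), *KLF2* (8.66), and ENSGALG00010014302 (8.38). A single member held 93.1% of the *POSTN* UMIs and 73.0% of the *EBF1* UMIs, and *EXFABP* was also 4.32-fold higher among the other barcodes of that library. Ratios of some leading genes follow as a description only. Their ranking had required a ratio to the other barcodes of at least 2 in each library. *STC2* had a ratio of 1.49 (1.34 to 1.66), *NRG1* 1.13 (0.95 to 1.33), and *MSC* 1.19 (0.96 to 1.47), Normal over HVP. *PENK* and *RYR3* had ratios of 0.59 (0.41 to 0.83) and 0.63 (0.45 to 0.87). The rule genes *MYF5* and *PAX7* had ratios of 1.06 (0.86 to 1.30) and 0.78 (0.57 to 1.07). With 1 library per group, a difference of the groups cannot be told apart from one of the libraries.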

How the data were processed

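The UMI counts per gene and barcode that the authors deposited were used as given. They had been obtained by the authors with Cell Ranger 7.1.0 on GRCg7b with mitochondrial genes added, without normalization, from dissociated peritoneum. The members, gene lists, and comparisons were chosen with earlier results of these data known.

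Barcodes with more than 1000 genes were kept, as in the study. UMIs were summed over members and divided by their total. Intervals at 95% are Clopper-Pearson where a share is given, exact conditional binomial where CPM values are divided, and exact Poisson where UMIs are summed. Since each group is 1 library, nothing was tested. Each library was clustered with Seurat 5.3.0 (R 4.3.3) on 2000 variable genes without the rule genes, 20 principal components, and a resolution of 0.2. A cluster took the name of a cell type if at least 3 of its markers were at least 2-fold higher and found in 10% of its barcodes. Sums and shares were computed with numpy 2.4.6, scipy 1.17.1, and pandas 2.3.3. Scrublet, through scanpy 1.11.5, called 5 and 130 of the kept barcodes doublets in the libraries labelled HVP and Normal. The former is under 0.5%, so the caller has not worked there, and none was removed.

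Named genes were the rule genes, the members of 11 lists with at least 10 UMIs that were called or define the list, the 25 largest ratios, the 10 lowest among genes with at least 100 CPM elsewhere, the 10 most abundant outside ribosomal protein and mitochondrial genes, and the 5 largest in each direction between libraries. Genes named from the ranking without *TNNC2*-rich barcodes, *PTGDS*, and the members outside the main clusters were chosen after their values were seen. Alternatives were other gene and rule limits, comparison barcodes, doublets, scalings (edgeR 4.0.16 for TMM), single libraries, and depth. Leaving out *TNNC2*-rich barcodes and taking the main clusters alone were added after seeing the data. The ratio script was tested on simulated data with 200 changed genes. Positions come from RefSeq, and gene and protein sequences were not analysed here. Some genes that the rule would name are not reported here.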

Additional observations from a re-analysis of the deposited data

How the results depend on the processing

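The number of members was 74 and ranged from 52 (at least 3 rule genes) to 76 (more than 500 genes). At least 3 rule genes gave a share of 0.459% in place of 0.653%. The number of genes called lower, 1875, was 760 in the library labelled HVP alone, 1122 without the *TNNC2*-rich barcodes, and 1080 with the members of the main clusters alone. With at least 30 UMIs, 587 genes were called higher and 926 lower, since fewer genes were counted. Between the libraries, 544 genes were at least 2-fold higher in the library labelled Normal and 681 in that labelled HVP. These were 300 and 361 when barcodes of 300 to 4000 genes were kept if mitochondrial genes took under 5% of UMIs, 309 and 154 with the mean over barcodes, 77 and 86 without the *TNNC2*-rich barcodes, and 74 and 75 in the main clusters. The cause was not tested. The mean over barcodes moved the median log2 ratio between the libraries from -0.39 to 0.03. TMM scaling gave 915 genes called higher and 1978 lower. Of the named ratios past 2-fold or called over all members, 16 values under the alternatives fell on the other side of 1. Without the *TNNC2*-rich barcodes and in the main clusters alone, *TNNC2* had 0.55 and 0.60 and *MYL1* 0.53 and 0.59 against the other barcodes. *TNNT3* had 0.80 and 0.89 there, and ENSGALG00010010295 0.46 and 0.43. Between the libraries, *EEF1A2* had 0.82 and 0.77. The *TNNC2*-rich members hold over 90% of the member UMIs of each of these genes. However, 3 *TNNC2*-rich barcodes stayed among the other barcodes, and their part in the values under 1 was not tested. With 300 to 4000 genes, *RYR1* had 0.67 and *ACTC1* 0, and *POSTN* 0.27 between the libraries. *POSTN* had 0.56 with at least 3 rule genes, *TNNI2* 0.75 after division by the ratio in the other barcodes, and *AQP1* 1.15 in the main clusters, all between the libraries. The cause of the latter 6 was not tested. Of 141 named genes called over all members, 108 had the same call without the *TNNC2*-rich barcodes. The cluster share of 87.8% was the same at a resolution of 0.5 and with both libraries clustered together. No paired analysis was possible because each group is 1 library, without replicate numbers. Genes with fewer than 10 UMIs in the members limit what this depth can show.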
